A study of Arabidopsis thaliana with 36 samples.

Results

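The data described here are RNA-seq gene counts from roots of an Arabidopsis thaliana line that overexpresses the peptide gene IMA1, with and without iron (Fe). The comparison uses 6 of the 36 libraries of the series, chosen by their labels: 3 libraries of IMA1ox -Fe and 3 of IMA1ox +Fe, none with the immune elicitor flg22. IMA1ox is UBQ10::mCitrine-IMA1, in which IMA1 fused to the fluorescent protein mCitrine is driven by the promoter of the ubiquitin gene UBQ10. The labels do not say whether 1 or several transgenic lines were used. Seedlings of age 7 days were moved for 24 h to liquid medium, either Fe-deficient with 50 µM FerroZine, a chelator of ferrous Fe, or with 75 µM Fe, and each library pooled about 15 roots. For comparison, 3 libraries each of WT (Col-0) -Fe and +Fe, and of the flagellin receptor mutant fls2 -Fe and +Fe, received the same media without flg22.

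IMA peptides are short proteins that plants make when Fe is scarce. They bind BTS, a ubiquitin ligase that degrades transcription factors of the Fe response, and so keep these factors active. The factors switch on the subgroup Ib bHLH genes, whose products act together with FIT to induce the root's Fe uptake genes, among them the ferric reductase FRO2 and the Fe transporter IRT1. Plants that overexpress IMA1 are known to run part of this response while Fe is present.

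The 6 IMA1ox libraries held 28130566 to 36839145 counts each, of which 4.87% to 5.72% came from the 10 genes with most counts. Of 24532 loci, 20354 were tested. Expression is given as CPM, counts divided by library size, after TMM correction of library sizes for their composition, and values after ± are the SE of a log2 fold change. Adjusted p-values are from edgeR's quasi-likelihood test with Benjamini-Hochberg adjustment over all genes tested, and a gene with an adjusted p under 0.05 is said to have risen or fallen. CPM is not divided by gene length, so levels are compared between groups and not between genes. Replicates are separate root pools, and p-values measure the spread between such pools. For each gene that spread was estimated over the 12 groups of all 36 libraries. The p-values and SE thus also carry the spread of WT, fls2 and flg22-treated groups, and fits of the 6 libraries alone are given where calls changed. Markers of green shoot tissue summed to 168 to 196 CPM in IMA1ox -Fe and 173 to 226 CPM in IMA1ox +Fe over 9 genes, and markers of stele, root cap, root hair, endodermis and dividing cells had counts in both groups. Where leaving out 1 of the 6 libraries ended a gene's call or moved its fold by over 1.5 times, that library is named in the gene's paragraph, with the log2 value or the range of adjusted p-values.

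Fe deficiency changed 873 genes in IMA1ox roots, 4.29% of those tested. Of these, 387 rose (1.90%) and 486 fell (2.39%). The large changes were mostly falls: 170 genes fell at least 2-fold and 81 rose at least 2-fold, and at 8-fold or more 45 fell and 2 rose. The 3 libraries of each group did not overlap in 4661 genes (22.9%), and 864 genes (4.24%) were both called and without overlap. The count was smaller with any 1 library left out: it was 673 without IMA1ox +Fe 1, 565 without IMA1ox +Fe 2, 466 without IMA1ox +Fe 3, 560 without IMA1ox -Fe 1, 545 without IMA1ox -Fe 2 and 527 without IMA1ox -Fe 3. A fit of the 6 libraries alone gave 1346 calls.

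The IMA1ox response was set beside the WT response. WT changed 1216 genes, and 120 of them also changed in IMA1ox, which is 13.7% of the IMA1ox calls and 9.87% of the WT calls, where 4.29% of all genes tested changed in IMA1ox. Of these 120 genes, 81 moved in the same direction and 39 in opposite directions. The 132 genes that rose at least 2-fold in WT had a median log2 fold change of -0.07 in IMA1ox, against 1.70 in WT. Of the 132, 3 rose in IMA1ox and 5 fell, shares near those over all genes tested (1.90% and 2.39%). The genes that fell in WT overlapped more. Of the 27 that fell at least 2-fold in WT, 9 fell in IMA1ox and 2 rose. Their median log2 fold change was -0.5 in IMA1ox, against -1.22 in WT. Of all 581 genes that fell in WT, 61 fell in IMA1ox and 22 rose. Conversely, the 170 genes that fell at least 2-fold in IMA1ox had a median of -1.97 there, 0 in WT and -0.01 in fls2. Across all genes tested the log2 fold changes of IMA1ox and WT had a Pearson r of 0.007, and those of IMA1ox and fls2 an r of 0.032, against 0.527 between fls2 and WT. These correlations run across genes, which are not independent replicates, and the 3 comparisons share no library.

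**Figure D1:**
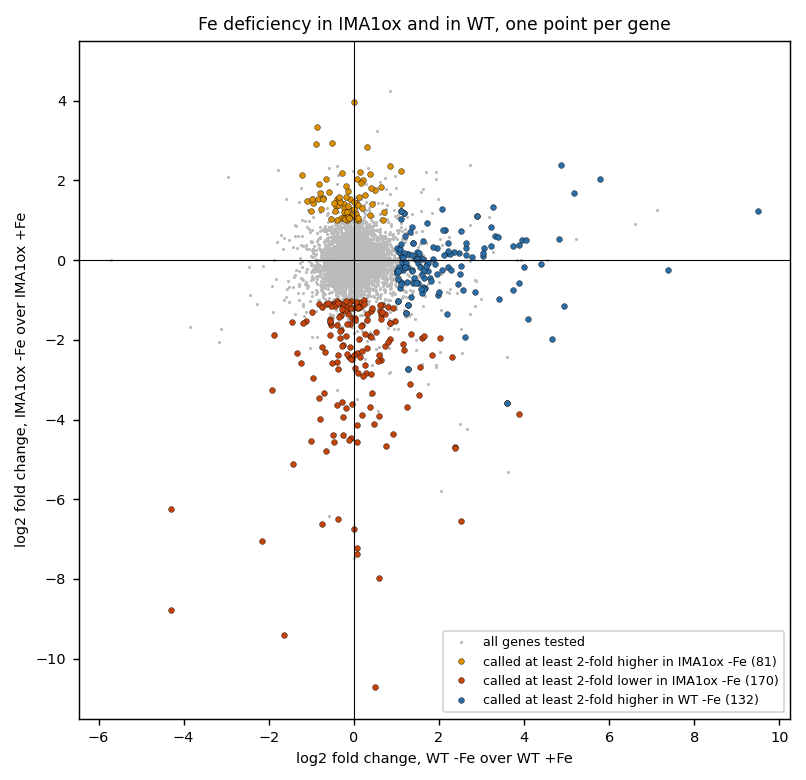
Log2 fold change under Fe deficiency in IMA1ox (vertical axis) against that in WT (horizontal axis) for the 20354 genes tested, 1 point per gene. Coloured points are the 81 genes called at least 2-fold higher and the 170 called at least 2-fold lower in IMA1ox -Fe. The 132 called at least 2-fold higher in WT -Fe are also coloured and drawn on top. The coloured sets lie along separate axes. The 27 genes called at least 2-fold lower in WT -Fe have no colour of their own.

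The overexpressed gene itself did not pass the test. IMA1 (AT1G47400) stood at 314, 309 and 306 CPM in IMA1ox -Fe, against 335, 350 and 338 CPM in IMA1ox +Fe, a log2 fold change of -0.14 ± 0.16 (adjusted p = 0.771, edgeR). In WT it averaged 13.8 CPM without Fe and 2.45 CPM with Fe. The reads in IMA1ox include the transgene. IMA2 (AT1G47395), a neighbouring copy of IMA1, rose, with 3.40, 4.64 and 5.10 CPM in IMA1ox -Fe against 1.73, 2.31 and 2.04 CPM in IMA1ox +Fe. Its log2 fold change was 1.11 ± 0.32 (adjusted p = 0.0425, edgeR), and the call ended without any 1 library other than IMA1ox -Fe 1 (adjusted p from 0.0828 to 0.178). IMA1 and IMA2 are similar in sequence, so reads between them are uncertain. IMA3 (AT2G30766), the third Fe-responsive member, had 0.0262, 0.0677 and 0 CPM in IMA1ox -Fe and 0.0566, 0.0289 and 0.120 CPM in IMA1ox +Fe. In WT -Fe it averaged 13 CPM and in WT +Fe 0.454 CPM, so IMA3 was near its lower limit of detection in both IMA1ox groups.

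None of the 4 subgroup Ib bHLH factors and none of the 10 genes on the list of BTS ligases, PYE and upstream bHLH factors passed the test in IMA1ox. bHLH38 (AT3G56970) had 69.7, 63.2 and 64.3 CPM in IMA1ox -Fe against 41.8, 47.0 and 42.3 CPM in IMA1ox +Fe, a log2 fold change of 0.59 ± 0.43 (adjusted p = 0.582, edgeR). bHLH100 (AT2G41240) had 81.8, 77.2 and 68.3 CPM in IMA1ox -Fe against 52.8, 57.3 and 49.5 CPM in IMA1ox +Fe, with 0.51 ± 0.56 (adjusted p = 0.756, edgeR). For both genes the 6 libraries did not overlap between the groups. In a fit of these 6 libraries alone both were called, with adjusted p = 3.88e-05 for bHLH38 and 0.000883 for bHLH100 (edgeR). In WT the same factors rose, by 3.38 for bHLH38 and 4.05 for bHLH100 on the log2 scale. Their IMA1ox +Fe levels lay between those of WT: bHLH38 averaged 144 CPM in WT -Fe and 14 CPM in WT +Fe, and bHLH100 averaged 148 CPM in WT -Fe and 9.10 CPM in WT +Fe.

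The difference of the IMA1ox response from the WT response was itself past the test for all 4 Ib factors. It was -2.80 ± 0.63 for bHLH38 (adjusted p = 0.0102, edgeR), -2.86 ± 0.40 for bHLH39 (adjusted p = 0.000103), -3.54 ± 0.85 for bHLH100 (adjusted p = 0.0154) and -2.88 ± 0.33 for bHLH101 (adjusted p = 8.7e-06). The bHLH100 difference missed the threshold without WT +Fe 3, at -3.11 (adjusted p = 0.0519), and was -4.14 without WT +Fe 2. BTS (AT3G18290), the ligase that the IMA peptides bind, had 82.6, 83.2 and 78.0 CPM in IMA1ox -Fe against 74.5, 85.6 and 77.7 CPM in IMA1ox +Fe. The 2 groups overlapped, whereas BTS averaged 161 CPM in WT -Fe and 57.3 CPM in WT +Fe, and the difference of responses was -1.45 ± 0.13 (adjusted p = 9.63e-08, edgeR). PYE (AT3G47640), a bHLH repressor of Fe distribution genes, differed from WT by -1.01 ± 0.12 (adjusted p = 9.16e-06, edgeR), with a log2 fold change of 0.17 ± 0.09 in IMA1ox against 1.18 in WT.

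Among the Fe uptake genes of the root surface, none of 11 on the list of FIT and Fe uptake was called in IMA1ox. IRT1 (AT4G19690), the main Fe importer, had 841, 668 and 716 CPM in IMA1ox -Fe against 650, 699 and 690 CPM in IMA1ox +Fe (0.13 ± 0.66, adjusted p = 0.957, edgeR). FRO2 (AT1G01580), the ferric reductase, had 413, 290 and 296 CPM in IMA1ox -Fe against 290, 303 and 340 CPM in IMA1ox +Fe (0.10 ± 0.70, adjusted p = 0.971, edgeR). Both genes overlapped between the groups, and in both the library IMA1ox -Fe 1 was the highest of its group. In WT, IRT1 averaged 1360 CPM without Fe and 220 CPM with Fe, and FRO2 averaged 941 CPM without Fe and 115 CPM with Fe. The difference of responses did not pass the test for IRT1 (-2.50 ± 0.95, adjusted p = 0.168, edgeR) or FRO2 (-2.94 ± 1.02, adjusted p = 0.121), and WT +Fe libraries varied, with IRT1 at 181, 362 and 119 CPM. In the fit of only the groups compared the IRT1 difference was called, at -2.49 (adjusted p = 0.0341, edgeR).

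FIT (AT2G28160), the bHLH factor of uptake genes, had 42.0, 37.0 and 33.6 CPM in IMA1ox -Fe against 49.0, 42.4 and 49.7 CPM in IMA1ox +Fe. All -Fe libraries were below all +Fe libraries by a small margin, with -0.32 ± 0.17 (adjusted p = 0.384, edgeR; 0.0473 in the fit of the 6 libraries alone). FIT rose in WT by 1.01, and the difference of responses was -1.33 ± 0.24 (adjusted p = 0.00148, edgeR). The MYB factors MYB72 and MYB10, which act downstream of FIT, had log2 fold changes of 0.83 ± 0.64 and 0.29 ± 0.37 in IMA1ox, neither past the test, against 3.23 and 2.65 in WT. The difference passed the test for MYB10 (-2.35 ± 0.54, adjusted p = 0.0116, edgeR) and missed it for MYB72 (-2.40 ± 0.91, adjusted p = 0.166), which was called at -3.68 without WT +Fe 2 (adjusted p = 0.0316). GRF11, a 14-3-3 protein of the uptake pathway, differed by -1.80 ± 0.31 (adjusted p = 0.000882, edgeR).

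Coumarins are phenolic compounds that roots secrete to dissolve Fe. F6'H1 (AT3G13610), the first committed enzyme, had 192, 174 and 164 CPM in IMA1ox -Fe against 176, 179 and 196 CPM in IMA1ox +Fe, overlapping groups with no call, and differed from the WT response by -1.19 ± 0.26 (adjusted p = 0.00685, edgeR). ABCG37 (AT3G53480), the plasma membrane exporter of coumarins, fell, with 211, 177 and 194 CPM in IMA1ox -Fe against 244, 263 and 279 CPM in IMA1ox +Fe. Its log2 fold change was -0.43 ± 0.10 (adjusted p = 0.0086, edgeR) in IMA1ox against 0.46 in WT, and the difference was -0.89 ± 0.14 (adjusted p = 0.000249). The ABCG37 call in IMA1ox ended without IMA1ox +Fe 3 (-0.39) and without IMA1ox -Fe 2 (-0.37). S8H, which hydroxylates scopoletin, had 33.7, 7.07 and 9.62 CPM in IMA1ox -Fe against 6.93, 10.3 and 13.2 CPM in IMA1ox +Fe, so a single -Fe library stood above the rest. CYP82C4, the next enzyme of that branch, had 149, 78.0 and 75.3 CPM in IMA1ox -Fe against 68.7, 53.5 and 80.9 CPM in IMA1ox +Fe, again with IMA1ox -Fe 1 the highest. The 3 members of this list that fell were ABCG37 and the P450 genes CYP82C2 and CYP82C3. CYP82C2 is known for an indolic defence compound rather than for coumarins, and it is described with the falls below.

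Genes that move Fe through the plant and into the vacuole came next. OPT3 (AT4G16370), a phloem Fe transporter, had 104, 116 and 111 CPM in IMA1ox -Fe against 89.6, 126 and 99.2 CPM in IMA1ox +Fe, whereas WT averaged 279 CPM without Fe and 41.1 CPM with Fe. The difference of responses was -2.70 ± 0.31 (adjusted p = 1.25e-05, edgeR). NAS4 (AT1G56430), a nicotianamine synthase, stood low in IMA1ox, with 3.25, 3.62 and 3.90 CPM without Fe and 2.01, 2.49 and 2.59 CPM with Fe, although WT averaged 56.1 CPM without Fe and 5.71 CPM with Fe. Unlike the Ib factors, NAS4 was thus lower in IMA1ox +Fe than in WT +Fe, a difference of levels that was not tested here. FRO3, a mitochondrial ferric reductase, ZIF1, a vacuolar nicotianamine transporter, and the vacuolar metal transporters NRAMP4, MTP3 and HMA3 had log2 fold changes in IMA1ox of 0.31, -0.07, 0.12, -0.10 and -0.35, none called. The same 5 genes had 1.95, 1.74, 1.37, 1.91 and 1.96 in WT, and each difference of responses passed the test. In the fit of the 6 libraries alone NAS4 (adjusted p = 0.0389, edgeR) and FRO3 (0.00917) were called.

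Over the 8 Fe lists together, 63 genes were tested in IMA1ox, of which 2 rose and 8 fell, against 1.90% and 2.39% of all genes. Their median log2 fold change was -0.003 in IMA1ox and 0.56 in WT, against 0 in IMA1ox and 0.002 in WT for all genes tested. Of these genes, 31 rose in WT. In IMA1ox, 1 of the 31 rose (IMA2) and 1 fell (ABCG37), and their median log2 fold change was 0.10 in IMA1ox and 1.95 in WT. For 25 of the 31 the IMA1ox response was lower than the WT response by the test of the difference. The same held for 260 of all 635 genes that rose in WT and for 470 of all genes tested (2.31%). The 31 were chosen by their rise in WT, which this difference subtracts, so the count describes them and tests nothing. The mean of IMA1ox -Fe lay below that of WT -Fe for 30 of the 31, and the mean of IMA1ox +Fe lay above that of WT +Fe for 27. Over the 635 genes that rose in WT these counts were 609 and 425, and the choice of genes by their WT rise favours both.

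**Figure D2:**
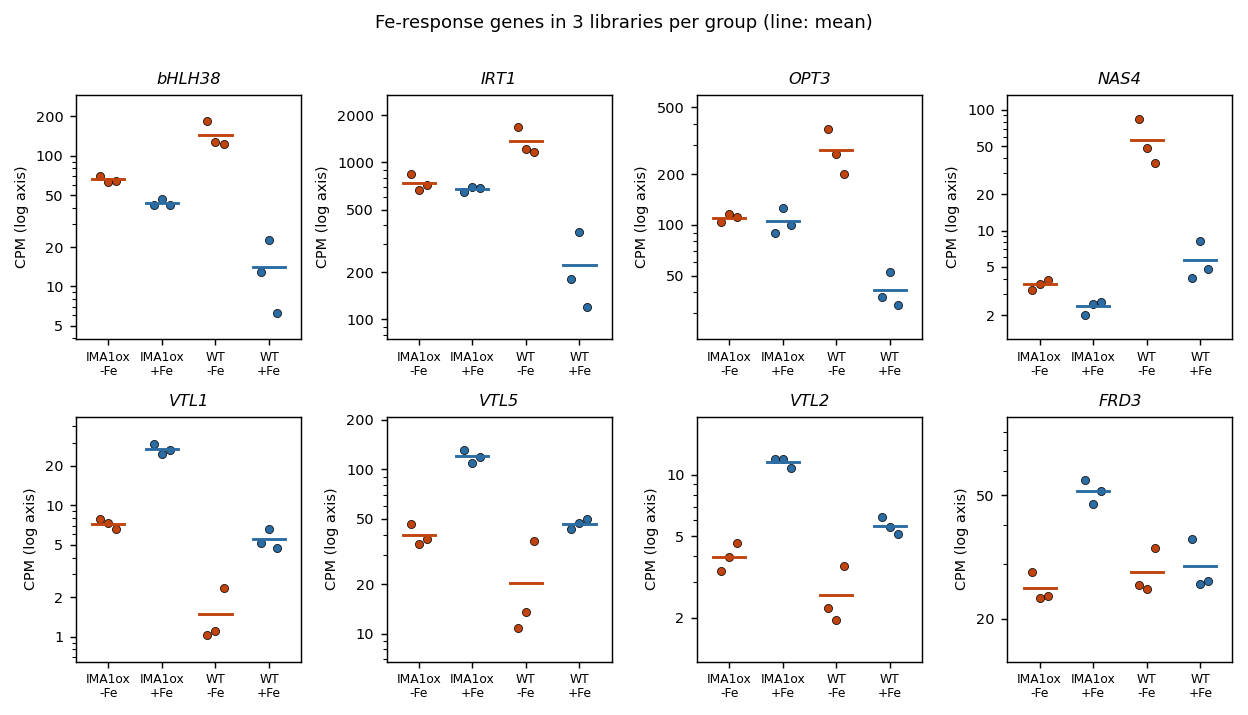
CPM per library (log axis) of 4 Fe-deficiency genes and 4 Fe-storage or citrate transport genes in IMA1ox -Fe, IMA1ox +Fe, WT -Fe and WT +Fe, with 3 points per group and a line at the mean. bHLH38, IRT1, OPT3 and NAS4 differ less between the IMA1ox groups than between the WT groups. The IMA1ox groups overlap for IRT1 and OPT3 and do not overlap for bHLH38 and NAS4. VTL1, VTL5, VTL2 and FRD3 are lower in IMA1ox -Fe than in IMA1ox +Fe.

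Genes of Fe storage did change in IMA1ox. VTL proteins are relatives of the vacuolar Fe importer VIT1, and 3 VTL genes fell. VTL1 (AT1G21140) had 7.80, 7.34 and 6.57 CPM in IMA1ox -Fe against 29.5, 24.4 and 26.6 CPM in IMA1ox +Fe, a log2 fold change of -1.89 ± 0.20 (adjusted p = 1.65e-06, edgeR). VTL5 (AT3G25190) had 46.5, 35 and 37.8 CPM in IMA1ox -Fe against 131, 110 and 119 CPM in IMA1ox +Fe (-1.59 ± 0.26, adjusted p = 0.000486, edgeR). VTL2 (AT1G76800) had 3.38, 3.96 and 4.62 CPM in IMA1ox -Fe against 12, 12 and 10.8 CPM in IMA1ox +Fe (-1.54 ± 0.17, adjusted p = 2.4e-06, edgeR). In each case every -Fe library was far below every +Fe library. All 3 also fell in WT, by 1.89 for VTL1, 1.20 for VTL5 and 1.13 for VTL2 on the log2 scale. The difference of responses was 0.00 ± 0.32 for VTL1 (adjusted p = 1, edgeR), -0.38 ± 0.37 for VTL5 (adjusted p = 0.731) and -0.41 ± 0.25 for VTL2 (adjusted p = 0.491). Without WT -Fe 3 it was 0.48 for VTL1 and 0.37 for VTL5, again not called. The VTL levels were higher in IMA1ox than in WT under both supplies, with VTL1 averaging 1.5 CPM in WT -Fe and 5.51 CPM in WT +Fe.

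Ferritins, which hold Fe in plastids, did not pass the test in IMA1ox. FER1 (AT5G01600) had 190, 180 and 198 CPM in IMA1ox -Fe against 292, 291 and 287 CPM in IMA1ox +Fe, groups that were tight and well apart, with -0.61 ± 0.23 (adjusted p = 0.153, edgeR). In the fit of the 6 libraries alone FER1 (adjusted p = 8.31e-06, edgeR) and FER3 (0.0401) were called. FER3 had 80.6, 65.6 and 76.4 CPM in IMA1ox -Fe against 92.0, 84.9 and 91.8 CPM in IMA1ox +Fe, and FER4 had 18.2, 17.9 and 16.5 against 20.1, 21.7 and 20.3 CPM. The FER1 difference from the WT response was 0.68 ± 0.33 (adjusted p = 0.327, edgeR), and 1.31 without WT -Fe 3 (adjusted p = 0.00059), the WT library whose FER1 level of 82.2 CPM stood apart from 26.2 and 37.2 CPM. Of the 7 Fe storage genes tested, 3 fell and none rose, where 2.39% of all genes fell. Their median log2 fold change was -0.61 in IMA1ox against -1.13 in WT.

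FRD3 (AT3G08040), which exports citrate into the xylem so that Fe stays soluble on its way to the shoot, fell in IMA1ox. It had 28.3, 23.3 and 23.7 CPM in IMA1ox -Fe against 56.0, 46.8 and 51.6 CPM in IMA1ox +Fe, a log2 fold change of -1.03 ± 0.16 (adjusted p = 0.000186, edgeR). In WT it averaged 28.2 CPM without Fe and 29.6 CPM with Fe, so the IMA1ox -Fe level was near that of WT and the +Fe level was above it. The difference of responses was -0.96 ± 0.22 (adjusted p = 0.0112, edgeR). FRD3 was the single call among 11 genes tested on the list of nicotianamine synthesis and Fe movement, where 4.29% of all genes were called. HMA4, which loads zinc into the xylem, fell by less, with 199, 186 and 164 CPM in IMA1ox -Fe against 240, 224 and 222 CPM in IMA1ox +Fe (-0.32 ± 0.08, adjusted p = 0.0202, edgeR). The HMA4 call ended without IMA1ox +Fe 1 (-0.28), IMA1ox -Fe 2 (-0.33) or IMA1ox -Fe 3 (-0.25).

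**Figure D3:**
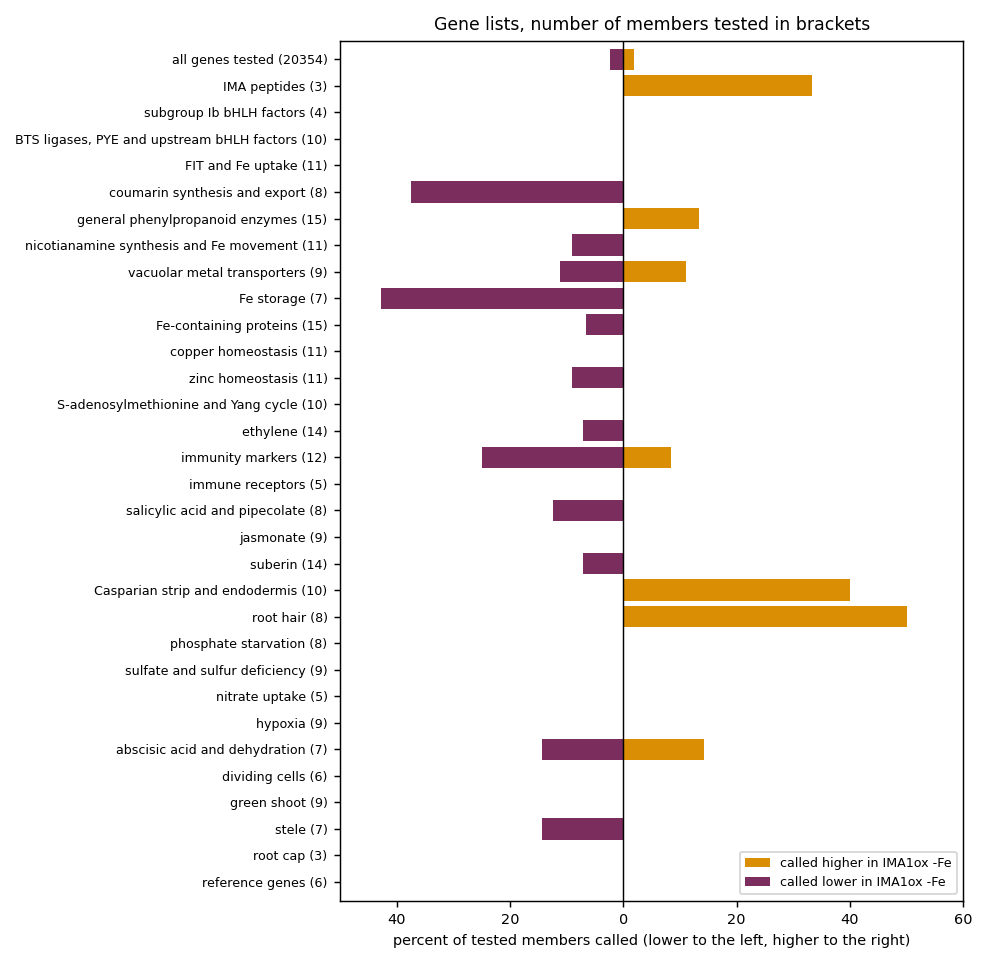
Percent of the tested members of each gene list called higher (right) or lower (left) in IMA1ox -Fe than in IMA1ox +Fe, with the number tested in brackets and all genes tested on top. The subgroup Ib bHLH, BTS and FIT lists have no call, Fe storage has 42.9% of its members called lower, and the root hair and Casparian strip lists have 50.0% and 40.0% called higher.

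The largest falls included genes of defence metabolism. By a rule of size, the 12 named falls were CYP82C2, GLIP1, AT1G26380, AT1G26240, AT1G26390, PXMT1, GSTF6, NAC042, GSTF7, GSTF3, CYP81F2 and TI1. All 12 had a higher mean in IMA1ox +Fe than in WT +Fe, and a lower mean in IMA1ox -Fe than in WT -Fe. None of the 12 changed in WT or in fls2. Since the genes were chosen by their fall, these counts describe them and test nothing. AT1G26240, a proline-rich extensin-like gene, had 1.62, 1.66 and 1.34 CPM in IMA1ox -Fe against 18.2, 26.9 and 72.3 CPM in IMA1ox +Fe (-4.67 ± 0.50, adjusted p = 4.09e-06, edgeR). It was -3.88 without IMA1ox +Fe 3, its highest library, and was not called in the fit of the 6 libraries alone (adjusted p = 0.06). PXMT1, a methyltransferase, had 0.497, 0.406 and 0.615 CPM in IMA1ox -Fe against 8.58, 9.58 and 14.3 CPM in IMA1ox +Fe (-4.39 ± 0.41, adjusted p = 4.15e-07, edgeR). On the scale of limma-trend, log2 of the authors' CPM plus 1, which understates changes of low genes, 8 of these falls were smaller by over 1.5 times and kept their calls. They were -4.37 for CYP82C2, -4.21 for AT1G26380, -3.75 for AT1G26240, -2.95 for AT1G26390 and PXMT1, -2.52 for GLIP1, -2.50 for NAC042 and -2.10 for GSTF3.

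CYP82C2 (AT4G31970), a P450 that makes a cyanogenic indole compound, had 0.0262, 0 and 0 CPM in IMA1ox -Fe against 12.8, 15.6 and 38.3 CPM in IMA1ox +Fe. That is 1 count over the -Fe group against 2264 over the +Fe group, a ratio of 2310 (95% counting interval 414 to 91200, counting error only), with adjusted p = 4.38e-06 (edgeR). WT averaged 1.23 CPM without Fe and 0.859 CPM with Fe. GLIP1 (AT5G40990), a secreted lipase of systemic resistance, had 0.0523, 0.0338 and 0 CPM in IMA1ox -Fe against 3.85, 3.15 and 9.08 CPM in IMA1ox +Fe. Its 3 counts against 547 give a ratio of 186 (interval 63.3 to 904; adjusted p = 2.4e-06, edgeR). Both genes were close to silent in IMA1ox -Fe and were highest in the library IMA1ox +Fe 3. The neighbour CYP82C3 had no count in IMA1ox -Fe and 51 counts in IMA1ox +Fe, at least 17.3-fold lower at a floor of 3 counts over the group (adjusted p = 0.000718, edgeR). The fitted log2 fold change of CYP82C2, -10.7, was -10.1 without IMA1ox +Fe 3 and -12.5 without IMA1ox -Fe 1, and that of GLIP1, -7.37, was -6.76 and -8.16 without the same libraries.

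The camalexin and indole glucosinolate pathways make the main sulfur-containing defence compounds of Arabidopsis from tryptophan. PAD3 (AT3G26830), the last enzyme of camalexin synthesis, had 11.7, 12.1 and 11.2 CPM in IMA1ox -Fe against 36.9, 28.8 and 71.2 CPM in IMA1ox +Fe (-1.97 ± 0.32, adjusted p = 0.000486, edgeR). WT averaged 18.3 CPM without Fe and 16.9 CPM with Fe. In the fit of the 6 libraries alone the PAD3 call was lost (adjusted p = 0.0929). CYP81F2 (AT5G57220), which modifies indole glucosinolates for defence, had 2.59, 4.16 and 4.20 CPM in IMA1ox -Fe against 28, 29.2 and 53.5 CPM in IMA1ox +Fe (-3.35 ± 0.41, adjusted p = 1.39e-05, edgeR). AT1G26380, known as FOX1 and needed for the cyanogenic indole compound, had 0.131, 0.372 and 0.294 CPM in IMA1ox -Fe against 20, 15.9 and 34.2 CPM in IMA1ox +Fe (-6.48 ± 0.82, adjusted p = 2.09e-05, edgeR). For these 3 genes every -Fe library was lower than every +Fe library, and IMA1ox +Fe 3 was the highest. NAC042 (AT2G43000), a transcription factor linked to camalexin, had 0.523, 0.575 and 0.989 CPM in IMA1ox -Fe against 7.05, 6.95 and 12.5 CPM in IMA1ox +Fe (-3.64 ± 0.48, adjusted p = 3.43e-05, edgeR).

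On a list of 25 indole glucosinolate and camalexin genes that was drawn up after values were seen, 15 fell and none rose, where 2.39% of all genes fell. Their median was -0.47 in IMA1ox and -0.10 in WT. The list includes genes picked for their fall, so its count is not independent evidence of direction. The indole glucosinolate methyltransferase IGMT2 had 4.79, 4.71 and 5.26 CPM in IMA1ox -Fe against 24.9, 26.1 and 28.5 CPM in IMA1ox +Fe (-2.43 ± 0.41, adjusted p = 0.000692, edgeR). IGMT4 had 6.33, 8.09 and 6.17 CPM in IMA1ox -Fe against 25.8, 29.5 and 34.3 CPM in IMA1ox +Fe (-2.13 ± 0.32, adjusted p = 0.000186, edgeR). The IGMT genes are near copies of each other, so reads among them are uncertain. MYB122, a regulator of the pathway, fell by 1.19 ± 0.15 (adjusted p = 7.22e-06, edgeR). The transporter PEN3 fell by 0.37 ± 0.07 (adjusted p = 0.000788, edgeR), whereas the early enzymes CYP79B2 (-0.47) and CYP79B3 (-0.40) were called in the full set but not without IMA1ox +Fe 2 or 3 or IMA1ox -Fe 1 or 2. The adjusted p was then 0.0975 to 0.181 for CYP79B2 and 0.0723 to 0.143 for CYP79B3, and CYP79B2 was not called in the fit of the 6 libraries alone either (0.101).

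Glutathione S-transferases conjugate toxic compounds for disposal, and 20 of the 52 tested fell while 1 rose, where 2.39% of all genes fell and 1.90% rose. Their median was -0.25 in IMA1ox and -0.05 in WT. This family was grouped after values were seen and includes GSTF3, GSTF6 and GSTF7, which were named for their fall. Its count is therefore a description. GSTF6 (AT1G02930) had 9.66, 12.5 and 10.3 CPM in IMA1ox -Fe against 129, 132 and 214 CPM in IMA1ox +Fe (-3.88 ± 0.54, adjusted p = 7.93e-05, edgeR). GSTF7 (AT1G02920), its near-identical neighbour, had 21.9, 26.2 and 22.7 CPM in IMA1ox -Fe against 243, 264 and 362 CPM in IMA1ox +Fe (-3.62 ± 0.41, adjusted p = 6.11e-06, edgeR). GSTF2 had 313, 288 and 243 CPM in IMA1ox -Fe against 609, 645 and 808 CPM in IMA1ox +Fe (-1.29 ± 0.20, adjusted p = 0.000281, edgeR). The groups were far apart for all 3, and the IMA1ox -Fe levels of GSTF6 and GSTF7 were lower than the WT averages, which lay at 20.5 CPM without Fe and 18 CPM with Fe for GSTF6. GSTF3 had 0.707, 0.305 and 0.508 CPM in IMA1ox -Fe against 4.95, 5.41 and 5.89 CPM in IMA1ox +Fe. Reads among the GSTF copies are uncertain.

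Other families of detoxification fell in part. Of 46 MATE efflux carriers tested, 11 fell and none rose, FRD3 among them. DTX1, a plasma membrane exporter of toxic compounds, had 1.68, 1.86 and 2.14 CPM in IMA1ox -Fe against 5.26, 5.64 and 6.71 CPM in IMA1ox +Fe (-1.63 ± 0.25, adjusted p = 0.00015, edgeR). Of 18 berberine bridge enzyme-like oxidases, 6 fell and none rose, among them the neighbours AT1G26380, AT1G26390, AT1G26410 and AT1G26420. AT1G26420 had 0.314, 0.541 and 0.294 CPM in IMA1ox -Fe against 3.71, 5.06 and 5.98 CPM in IMA1ox +Fe (-3.71 ± 0.51, adjusted p = 4.46e-05, edgeR; -2.09 by limma-trend). UGT73B4, a glycosyltransferase, had 9.94, 7.31 and 9.78 CPM in IMA1ox -Fe against 26.1, 30.5 and 35.5 CPM in IMA1ox +Fe (-1.76 ± 0.19, adjusted p = 3.56e-06, edgeR), and 9 of 106 such enzymes fell while 2 rose. Among 168 cytochromes P450, 17 fell and 4 rose, against 2.39% and 1.90% of all genes, and the share that rose is near that background. By contrast none of 317 ribosomal protein genes changed by the edgeR test. These families were grouped by their RefSeq product names after values were seen. The AT1G26390 log2 fold change of -4.54 was -5.27 without IMA1ox -Fe 2. That of AT1G26410, -6.63, was -6.03 without IMA1ox -Fe 1 and -7.94 without IMA1ox -Fe 2.

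Markers of immunity changed in part, with 3 of 12 tested lower and 1 higher, against 2.39% and 1.90% of all genes. PER4 (AT1G14540), a peroxidase induced by microbial patterns, had 0.837, 1.66 and 1.42 CPM in IMA1ox -Fe against 7.87, 7.03 and 10.6 CPM in IMA1ox +Fe (-2.72 ± 0.40, adjusted p = 0.00014, edgeR). WT averaged 14.9 CPM without Fe and 6.12 CPM with Fe, a change in the opposite direction. CYP81F2 and PER5, a peroxidase next to PER4, were the other markers that fell, and the PER5 call (-3.59 ± 0.98, adjusted p = 0.0293, edgeR) ended without any 1 library except IMA1ox +Fe 2 (adjusted p from 0.0679 to 0.106). PER5 was -4.31 without IMA1ox -Fe 1, and limma-trend gave -0.86 for it, with no call, and -2.04 for PER4. WRKY40, a transcription factor of early defence, rose, with 1.99, 5.52 and 7.27 CPM in IMA1ox -Fe against 2.15, 1.36 and 2.01 CPM in IMA1ox +Fe, groups that overlapped (1.41 ± 0.36, adjusted p = 0.0209, edgeR). The WRKY40 call ended without IMA1ox +Fe 2 or 3 or IMA1ox -Fe 2 or 3 (adjusted p from 0.0634 to 0.201) and in the fit of the 6 libraries alone (0.255). WRKY33, which drives camalexin genes, had 40.0, 63.9 and 67.7 CPM in IMA1ox -Fe against 49.5, 52.8 and 60.3 CPM in IMA1ox +Fe and was not called. Neither FLS2, the flagellin receptor (-0.18 ± 0.29), nor any other of 5 immune receptor genes was called. TI1 (AT2G43510), a trypsin inhibitor of the defensin type, fell, with 2.43, 2.77 and 1.87 CPM in IMA1ox -Fe against 12.9, 17.8 and 19.6 CPM in IMA1ox +Fe (-2.84 ± 0.38, adjusted p = 4.46e-05, edgeR).

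**Figure D4:**
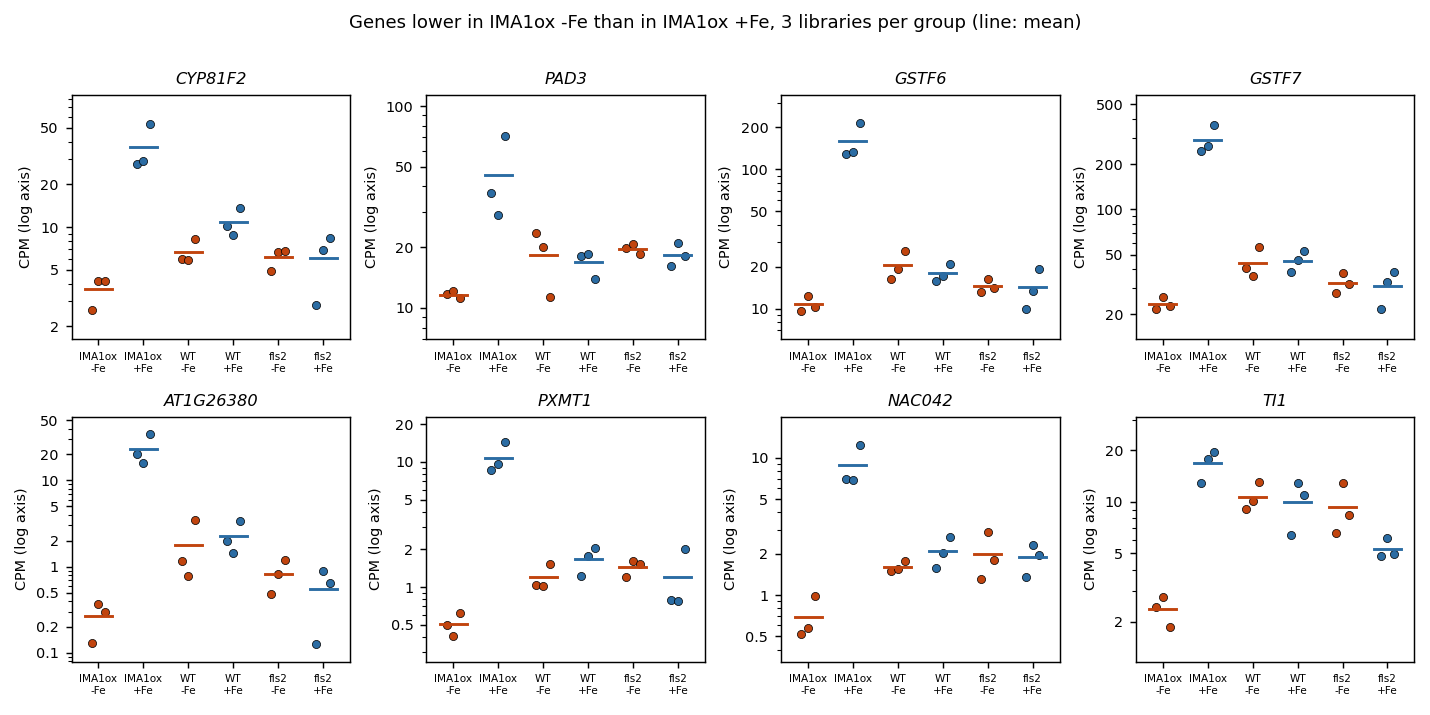
CPM per library (log axis) of 8 genes lower in IMA1ox -Fe than in IMA1ox +Fe, shown for IMA1ox, WT and fls2 without and with Fe, with 3 points per group and a line at the mean. IMA1ox +Fe is the highest group in all 8 panels and IMA1ox -Fe is the lowest.

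The rises were smaller than the falls and included cell wall and root hair genes. By the rule of size, the 12 named rises were AT5G33355, G3Pp2, AT5G26080, AT1G34047, AT3G59930, XTH26, AT3G48940, AGD11, AT4G20450, NAC074, AT3G02620 and AT3G20460. All 12 had a lower mean in IMA1ox +Fe than in WT +Fe, a count that describes genes chosen by their rise and tests nothing. AT5G33355, a defensin-like peptide gene, had 21.6, 17.2 and 21.4 CPM in IMA1ox -Fe against 3.31, 1.16 and 1.44 CPM in IMA1ox +Fe (3.34 ± 0.39, adjusted p = 8.44e-06, edgeR). WT averaged 27.5 CPM without Fe and 49.9 CPM with Fe, so the IMA1ox -Fe level was the closer of the pair to WT. The AT5G33355 value was 3.95 without IMA1ox +Fe 1. The other defensin-like genes among the rises were AT3G59930, with 68.4, 58.6 and 56.3 CPM in IMA1ox -Fe against 23.8, 12.2 and 21.5 CPM in IMA1ox +Fe (1.67 ± 0.29, adjusted p = 0.000947, edgeR), and AT1G34047 (1.90 ± 0.40, adjusted p = 0.00403).

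G3Pp2 (AT4G25220), a glycerol-3-phosphate permease family gene that RefSeq also lists as root hair specific, had 14.3, 18.8 and 14.5 CPM in IMA1ox -Fe against 3.71, 4.08 and 2.95 CPM in IMA1ox +Fe (2.14 ± 0.33, adjusted p = 0.000212, edgeR). In WT it fell, with averages of 4.86 CPM without Fe and 11.3 CPM with Fe. XTH26, a xyloglucan-remodelling enzyme of the wall, had 47.7, 58.1 and 42.0 CPM in IMA1ox -Fe against 17.4, 14.4 and 17.7 CPM in IMA1ox +Fe (1.58 ± 0.34, adjusted p = 0.00668, edgeR). NAC074, a transcription factor, had 8.98, 10.7 and 8.82 CPM in IMA1ox -Fe against 3, 4.05 and 3.43 CPM in IMA1ox +Fe (1.44 ± 0.27, adjusted p = 0.00131, edgeR). It too fell in WT, so G3Pp2 and NAC074 moved in opposite directions in the 2 genotypes. The remaining named rises ranged from 1.26 for AT3G20460, a transporter of the major facilitator family, to 2.04 for AT5G26080, a proline-rich protein gene. The call of AT3G48940, a remorin gene (1.54), ended without IMA1ox +Fe 2, at 1.35.

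On the root hair list 4 of 8 genes rose and none fell, where 1.90% of all genes rose, with a median log2 fold change of 0.55 in IMA1ox and 0.05 in WT. LRX1 (AT1G12040), a wall protein of root hairs, had 152, 131 and 142 CPM in IMA1ox -Fe against 67.2, 77.8 and 89.1 CPM in IMA1ox +Fe (0.86 ± 0.18, adjusted p = 0.00506, edgeR). EXPA18, a root hair expansin, had 42.2, 45.3 and 41.2 CPM in IMA1ox -Fe against 27.1, 27.7 and 29.5 CPM in IMA1ox +Fe (0.61 ± 0.13, adjusted p = 0.00431, edgeR), and EXPA7 rose by 0.59 ± 0.13 (adjusted p = 0.00556). PRP3 had 251, 264 and 243 CPM in IMA1ox -Fe against 120, 119 and 143 CPM in IMA1ox +Fe (0.99 ± 0.27, adjusted p = 0.0324, edgeR). The groups lie well apart in each of these genes, but the PRP3 call ended without any 1 of the 6 libraries (adjusted p from 0.0721 to 0.121). The regulators RHD6 and RSL4, which start and drive hair growth, had log2 fold changes of 0.03 ± 0.12 and -0.11 ± 0.23 and were not called. The list summed to 589 to 624 CPM in IMA1ox -Fe and 346 to 405 CPM in IMA1ox +Fe, against 535 to 584 CPM in WT -Fe and 522 to 735 CPM in WT +Fe. In whole roots, a change in the number of cells of a type and a change in RNA per cell cannot be told apart.

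Of 15 genes that RefSeq names root hair specific, 9 rose and none fell, where 1.90% of all genes rose. This group was drawn up after values were seen and includes G3Pp2. RHS19 (AT5G67400) had 196, 230 and 190 CPM in IMA1ox -Fe against 105, 97.3 and 114 CPM in IMA1ox +Fe (0.96 ± 0.18, adjusted p = 0.00148, edgeR). RHS13 had 104, 122 and 99.9 CPM in IMA1ox -Fe against 60.9, 52.1 and 58.0 CPM in IMA1ox +Fe (0.93 ± 0.19, adjusted p = 0.00315, edgeR). WT held both genes near the IMA1ox -Fe level under either supply, with RHS19 averaging 206 CPM without Fe and 202 CPM with Fe. AGP3, an arabinogalactan protein gene, had 118, 122 and 120 CPM in IMA1ox -Fe against 49.0, 53.8 and 66.0 CPM in IMA1ox +Fe (1.09 ± 0.22, adjusted p = 0.00356, edgeR). EXT10, an extensin of the wall, had 485, 449 and 484 CPM in IMA1ox -Fe against 171, 200 and 243 CPM in IMA1ox +Fe (1.21 ± 0.24, adjusted p = 0.00333, edgeR). Extensins share repeats, so reads among them are uncertain. Of the 59 genes with peroxidase product names, a family grouped after values were seen, 6 rose and 10 fell, against 1.90% and 2.39% of all genes. AT4G26010, 1 of those that rose, had 195, 222 and 184 CPM in IMA1ox -Fe against 108, 90.8 and 110 CPM in IMA1ox +Fe.

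The Casparian strip is the wall barrier that forces nutrients through endodermal cells. On its list 4 of the 10 genes rose, where 1.90% of all genes rose. CASP1 (AT2G36100), a membrane scaffold of the strip, had 79.8, 75.5 and 82.1 CPM in IMA1ox -Fe against 54.8, 54.5 and 51.8 CPM in IMA1ox +Fe (0.56 ± 0.12, adjusted p = 0.00676, edgeR). CASP2 rose by 0.62 ± 0.12 (adjusted p = 0.00215, edgeR). ESB1 (AT2G28670), a dirigent protein that places lignin in the strip, had 116, 111 and 115 CPM in IMA1ox -Fe against 87.0, 83.9 and 80.5 CPM in IMA1ox +Fe (0.45 ± 0.08, adjusted p = 0.00118, edgeR). The 2 groups were separate for CASP1, CASP2 and ESB1, and none of the 10 genes differed between the IMA1ox and WT responses at the threshold (edgeR). The difference for CASP2 was 0.44 ± 0.17 (adjusted p = 0.166, edgeR), called at 0.61 without WT -Fe 3 (adjusted p = 0.0326). The regulator MYB36 had 16.8, 17.3 and 15.7 CPM in IMA1ox -Fe against 14.1, 14.3 and 13.3 CPM in IMA1ox +Fe (0.25 ± 0.08, adjusted p = 0.0707, edgeR). Among 18 dirigent-like genes, grouped after values were seen, 7 rose and 1 fell, against 1.90% and 2.39% of all genes. Of these, AT5G42510 had 24.6, 25.6 and 25.3 CPM in IMA1ox -Fe against 12.3, 11.8 and 11.5 CPM in IMA1ox +Fe (1.09 ± 0.18, adjusted p = 0.000454, edgeR). Suberin, the second barrier of the endodermis, had all 14 of its genes at log2 fold changes below 0, as had 10162 of all 20354 genes tested. The suberin median was -0.385 in IMA1ox, -0.527 in WT and -0.328 in fls2, and none of the 14 differed between the responses at the threshold. Only GPAT7 of the 14 was called in IMA1ox (-0.65 ± 0.18, adjusted p = 0.0372, edgeR), where 2.39% of all genes fell. Its call ended without any 1 library except IMA1ox -Fe 3 (adjusted p from 0.0537 to 0.166).

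Aquaporins, the water channels of the cell, had 6 of 26 genes higher and none lower, where 1.90% of all genes were higher. This family was grouped after values were seen, so its count is a description. Of the 6 calls, that of PIP2;4 ended without any 1 of the 6 libraries (adjusted p from 0.0656 to 0.156, edgeR). That of GAMMA-TIP ended without IMA1ox +Fe 2 (0.38) or IMA1ox -Fe 3 (0.40). TIP2;2 had 420, 355 and 447 CPM in IMA1ox -Fe against 262, 206 and 231 CPM in IMA1ox +Fe (0.80 ± 0.14, adjusted p = 0.000726, edgeR). WT averaged 372 CPM without Fe and 455 CPM with Fe. In the lignin pathway the methyltransferase COMT1 rose, with 382, 426 and 409 CPM in IMA1ox -Fe against 319, 316 and 333 CPM in IMA1ox +Fe (0.33 ± 0.07, adjusted p = 0.00689, edgeR). It was 0.29 without IMA1ox -Fe 2 (adjusted p = 0.0509). The ethylene-forming enzyme ACO4 fell, with 56.5, 62.2 and 49.1 CPM in IMA1ox -Fe against 73.9, 90 and 82.1 CPM in IMA1ox +Fe (-0.55 ± 0.11, adjusted p = 0.00286, edgeR). It was the 1 call among 14 ethylene genes, where 4.29% of all genes were called. RD29A, a dehydration marker, fell by 0.62 ± 0.12 (adjusted p = 0.00151, edgeR), and by 0.80 in WT.

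**Figure D5:**
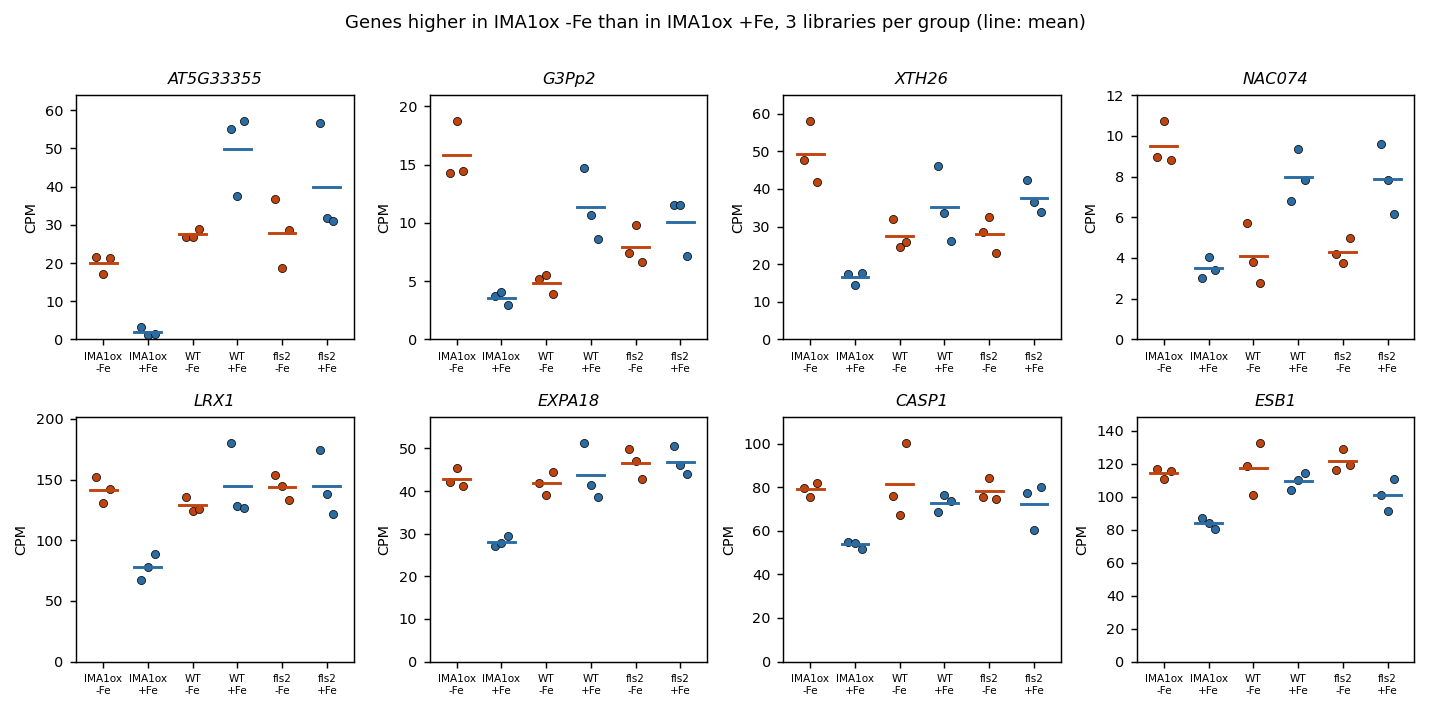
CPM per library (linear axis from 0) of 8 genes higher in IMA1ox -Fe than in IMA1ox +Fe, shown for IMA1ox, WT and fls2 without and with Fe, with 3 points per group and a line at the mean. IMA1ox +Fe is the lowest group in all 8 panels.

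The edgeR test called no member of the lists for copper homeostasis (11 genes tested), S-adenosylmethionine and the Yang cycle (10), jasmonate (9), phosphate starvation (8), sulfur deficiency (9), nitrate uptake (5), hypoxia (9), dividing cells (6), green shoot tissue (9), root cap (3) or reference genes (6). S-adenosylmethionine genes, which feed nicotianamine synthesis, had a median log2 fold change of 0.02 in IMA1ox and 0.34 in WT. Of the 10, 5 differed between the responses, all lower in IMA1ox, where 2.31% of all genes were lower.

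The response of IMA1ox was set against that of WT by the test of the difference, which called 818 genes (4.02%), 348 of them higher in IMA1ox (1.71%) and 470 lower (2.31%). Among the 12 named falls and the 12 named rises, all 24 differed from WT and 18 from fls2. These genes were chosen by their change in the same IMA1ox libraries, so the counts describe them and test nothing. The largest lower differences from WT by the naming rule were CYP82C2 (-11.2), GLIP1 (-7.45), AT1G26380 (-6.11), AT1G26240 (-5.42) and GSTF3 (-4.91). GSTF3 depended on WT -Fe 3, without which it was -2.85 (adjusted p = 0.279, edgeR), and was -5.98 without WT +Fe 3. GLIP1 lost its call without WT +Fe 2 or 3, WT -Fe 1 or 3, or IMA1ox -Fe 2 or 3 (adjusted p from 0.0583 to 0.176), and was -9.18 without WT +Fe 1, -8.24 without IMA1ox -Fe 1 and -6.84 without IMA1ox +Fe 3. Without WT -Fe 3, CYP82C2 was -8.62, AT1G26240 -4.43 and AT1G26380 -5.23, and these kept their calls. Without IMA1ox +Fe 3, AT1G26240 was -4.63 and CYP82C2 -10.6, and without IMA1ox -Fe 1 CYP82C2 was -13.0. The largest higher differences were AT5G33355 (4.20), G3Pp2 (3.36), AT1G34047 (2.72), AT5G26080 (2.69) and CYP710A4 (2.55), of which AT5G33355 was 4.81 without IMA1ox +Fe 1. CYP710A4 kept its call only without WT +Fe 2, WT -Fe 2 or IMA1ox -Fe 1 (otherwise adjusted p from 0.0501 to 0.109). Against fls2 the test called 436 genes (2.14%), 191 higher (0.938%) and 245 lower (1.20%). By the same rule the lower differences from fls2 were AT1G26380 (-7.06), AT1G26390 (-5.70), PXMT1 (-4.67), AT1G26240 (-4.44) and GSTF6 (-3.91). The higher ones were AT5G33355 (3.85), AT3G59930 (2.52), G3Pp2 (2.48), AT1G34047 (2.33) and NAC074 (2.31). AT1G34047 lost its call against fls2 without fls2 +Fe 1 (1.71) or IMA1ox -Fe 1 (2.05), and AT1G26380 without fls2 -Fe 3 (-6.69). Against fls2, AT5G33355 was 4.46 without IMA1ox +Fe 1, AT1G26240 -3.65 without IMA1ox +Fe 3, AT1G26390 -6.43 without IMA1ox -Fe 2 and PXMT1 -5.28 without fls2 +Fe 3. By limma-trend the differences from WT were -4.36 for CYP82C2, -2.53 for GLIP1, -3.90 for AT1G26380, -4.15 for AT1G26240, -2.43 for GSTF3, 2.04 for AT1G34047 and 1.66 for CYP710A4. By limma-trend the differences from fls2 were -4.46 for AT1G26380, -3.85 for AT1G26390, -3.15 for PXMT1, -3.59 for AT1G26240 and 1.62 for AT1G34047, and all of these were called. In the fit of only the groups compared, GLIP1 (adjusted p = 0.0791, edgeR) and PAD3 (0.0728) lost their call against WT, and AT1G34047 (0.0656) against fls2. The differences from WT and from fls2 share the IMA1ox libraries.

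The other 6 IMA1ox libraries, which also received 100 nM flg22, entered the filter, the scaling and the estimate of spread, but not the group means compared above. In them the mean without Fe was lower than the mean with Fe for 12 of the 12 named falls, and higher for 12 of the 12 named rises. This count was not tested, and the share of all genes with the same signs is not given here. Sizes varied among the rises. Under flg22, G3Pp2 averaged 6.57 CPM in -Fe and 5.42 CPM in +Fe, where the groups lacking flg22 averaged 15.8 and 3.58 CPM. AT5G26080 averaged 1.49 and 1.23 CPM under flg22, where those groups averaged 8.07 and 1.97 CPM. AT3G48940 kept a wide gap, with 1.37 and 0.305 CPM under flg22, where those groups averaged 7.24 and 2.49 CPM.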

How the data were processed

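Both tables used were deposited by the authors: raw counts for each locus in all 36 libraries, and a normalised signal in CPM. Per the submitters' processing notes STAR 2.7.0a, edgeR 3.36.0 and the build TAIR10 were used, with no roles given. How reads were counted, with which strand setting, and which genes were filtered is not given in the sources used here. The deposited CPM signal was checked to be the counts times 1 constant per library (scaling factors 0.97 to 1.05) and served for one alternative only. Without a known strand setting, reads of a gene and its antisense partner cannot be told apart.

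Counts were tested in R 4.3.3 with edgeR 4.0.16 (TMM, filterByExpr at a minimum count of 10, robust quasi-likelihood F-test), with 1 mean for each of 12 groups over 36 libraries and Benjamini-Hochberg adjustment over 20354 genes. The contrasts were IMA1ox -Fe minus IMA1ox +Fe, and that difference minus the same one in WT or fls2. Loci matched RefSeq names of TAIR10.1 in 24528 of 24532 cases, for names only, since the build differs. Sequences and positions were not used here.

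Genes were named by rule: 12 per direction, by size of change, among called genes whose libraries did not overlap and whose mean reached 5 CPM in either group, and for each difference the 5 largest each way. Further genes are members of 31 gene lists, or of 15 families added after values were seen. All members and lists were chosen with earlier results of these data known. Single genes shown as examples were chosen after their values were seen.

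On simulated counts 89% of genes changed 2-fold and 76% of those changed 1.5-fold were recovered for Fe deficiency in IMA1ox, with 4 false calls, and 87% and 54% for the difference from WT, with 5 false calls. The changed genes were drawn from those above a floor of mean expression. Groups were otherwise alike, each gene kept the same spread in all groups, and no replicate effect was simulated. These rates therefore do not cover lowly expressed genes or groups of unequal spread. Alternatives used DESeq2 1.42.0, limma 3.58.1 (limma-trend on log2 of CPM plus a pseudocount of 1), RLE size factors, library totals, other filters, a 2-fold minimum, fewer groups, the replicate number as a block, and each library left out.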

Additional observations from a re-analysis of the deposited data

Results flagged for a closer look

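The difference between the Fe deficiency response of IMA1ox and that of WT passed the edgeR test of the difference for 37 of the 46 genes followed, and that from fls2 for 10 of 10. Values are log2 differences, IMA1ox minus the other genotype, and negative ones mean a lower response in IMA1ox. The genes were chosen by their changes or as Fe genes, so the shares are a description.

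Among regulators of Fe deficiency, the difference from WT was -2.66 for IMA1, -1.78 for IMA2, -2.80 for bHLH38, -2.86 for bHLH39, -3.54 for bHLH100 and -2.88 for bHLH101. It was -1.01 for PYE, -1.45 for BTS, -1.12 for BTSL1, -0.61 for BTSL2, -1.33 for FIT, -2.35 for MYB10 and -1.80 for GRF11. Among genes of coumarins and Fe movement it was -1.19 for F6'H1, -0.89 for ABCG37, -2.70 for OPT3, -1.65 for FRO3, -2.71 for NAS4 and -0.96 for FRD3. Among vacuolar transporters it was -1.81 for ZIF1, -1.25 for NRAMP4, -2.01 for MTP3 and -2.31 for HMA3.

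Among the other genes that were lower, the difference from WT was -11.2 for CYP82C2, -7.45 for GLIP1, -6.11 for AT1G26380, -5.42 for AT1G26240, -4.91 for GSTF3, -4.07 for GSTF6, -2.64 for CYP81F2 and -2.09 for PAD3. It was higher for AT5G33355 (4.20), G3Pp2 (3.36), AT1G34047 (2.72), AT5G26080 (2.69), CYP710A4 (2.55) and EXPA18 (0.68). The EXPA18 call ended without WT +Fe 1, WT -Fe 1 or 2, IMA1ox +Fe 1 or 2, or IMA1ox -Fe 2.

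The difference from fls2 was -7.06 for AT1G26380, -5.70 for AT1G26390, -4.67 for PXMT1, -4.44 for AT1G26240 and -3.91 for GSTF6. It was 3.85 for AT5G33355, 2.52 for AT3G59930, 2.48 for G3Pp2, 2.33 for AT1G34047 and 2.31 for NAC074.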

How the results depend on the processing

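Among the genes followed through the alternatives, no called gene reversed its direction, and the other called genes were not checked. Among followed genes that were not called, the sign changed with 1 library left out for BTS, FRO2, GRF11, OPT3 and WRKY33 in IMA1ox and for VTL1 and VTL5 in the difference from WT, and that of VTL1, at 0.00, also with other scalings, filters and fits. The number of genes called for Fe deficiency in IMA1ox (873), its difference from WT (818) and its difference from fls2 (436) became 251, 312 and 179 at a minimum of 2-fold. With each library left out they ranged from 466 to 673, 534 to 790 and 262 to 390. With only the groups compared, 1346 genes were called for Fe deficiency in IMA1ox, and DESeq2 called 660 for the difference from fls2.

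With the replicate number as a block the counts were 962, 872 and 463, and with the block and only the groups compared they were 2003, 766 and 839. Same-numbered IMA1ox libraries had correlated deviations of 0.164, 0.182 and 0.0704, and each IMA1ox library correlated best with its own number. The second principal component of the 6 libraries, an axis holding 15% of their variance, also followed the numbers. It was 9.91 in -Fe 1 and 10.1 in +Fe 1, -10.2 in -Fe 2 and -10.1 in +Fe 2, and -0.0654 in -Fe 3 and 0.441 in +Fe 3. In WT and fls2 not every library correlated best with its own number. The main test did not use this pairing, and the block was kept as an alternative. Of the 94 genes called among the 123 followed in IMA1ox, 63 kept their call with each of the 6 libraries left out in turn, and 31 lost it at least once. RLE size factors, library totals and DESeq2 ended no call among them, limma-trend ended 3, no filter on low counts ended 4, and the fit of the 6 libraries alone ended 12 and added 7. The 2-fold minimum ended 39, the replicate block ended 2 (IMA2, adjusted p = 0.0512, and DIR5, 0.0544, edgeR), and the block with only the groups compared ended 10 and added 10. Those added included MYB72 (adjusted p = 0.0114, edgeR), bHLH101 (0.039), FIT (0.00567) and FER4 (0.034). Those ended included AT3G59930 (adjusted p = 0.078, edgeR), GSTF2 (0.124) and RD29A (0.0722). For the difference from WT, the 2-fold minimum ended 4 of 37 calls, only the groups compared ended 2 and added 1, and the block with it ended 4 (FIT, NAS4, F6'H1 and PAD3). For the difference from fls2, only the groups compared ended 1 of 10. Depth limits CYP82C2, CYP82C3, GLIP1 and WRKY41, which had 0 to 3 counts over the IMA1ox -Fe group. The WRKY41 log2 fold change in IMA1ox, -4.46, was -3.87 without IMA1ox -Fe 1 and -5.39 without IMA1ox -Fe 2. The DIR5 call (-2.43) ended without any 1 library except IMA1ox +Fe 2 (adjusted p from 0.0531 to 0.306, edgeR), and was -1.66 without IMA1ox +Fe 3.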
